A study of Mus musculus with 16 samples.

Results

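The genes described here encode the proteasome, its interferon-inducible variant (the immunoproteasome), its activators and its assembly chaperones, measured in mouse liver. They were chosen by name: every gene symbol that begins with Psm, a letter from a to g and a digit, without the pseudogenes marked ps. This gave 50 of the 24411 symbols counted, and 48 of these were among the 12901 genes with enough counts to be tested. Polyadenylated RNA was sequenced from livers of 4 groups with 4 libraries each. EtOH+MBV mice received an ethanol diet by the NIAAA scheme of chronic feeding with binges, together with matrix-bound nanovesicles (MBV), small vesicles that sit within the extracellular matrix. EtOH mice had the same ethanol diet and vehicle, PF+MBV mice were pair-fed without ethanol and given MBV, and PF mice were pair-fed and given vehicle. The labels name no strain, sex, age, MBV source or dose, and do not say whether each library is a separate mouse, so p-values measure the spread between these libraries, which may be technical.

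The proteasome is the barrel-shaped protease that degrades proteins tagged with ubiquitin. Its core particle is built of alpha rings, which gate the entrance, and beta rings, of which Psmb5, Psmb6 and Psmb7 carry the active sites. The regulatory particle, made of a base with an ATPase ring and of a lid, binds tagged proteins, removes the ubiquitin and threads the protein into the core. Interferon-gamma induces Psmb8, Psmb9 and Psmb10, which take the places of Psmb5, Psmb6 and Psmb7 in newly built cores and favour the peptides that MHC class I presents. It also induces Psme1 and Psme2, the PA28 cap. Immune cells carry much immunoproteasome, and hepatocytes mostly carry the constitutive form.

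The promoters of 5 members are shown because the results turn on them: the inducible Psmb8, Psmb9 and Psme1, the constitutive Psmb5, and Psmd8, which had the smallest p of the members in EtOH against PF. Each window runs from 250 bases before to 50 bases after the RefSeq start (GRCm38.p6) and is written 5′ to 3′ on the strand of the gene. Capitals mark any match to the interferon elements GAS (TTCNNNGAA) and the core of ISRE (GAAANNGAA), the antioxidant response element (ARE, TGACNNNGC) or the NF-Y box (CCAAT), searched on both strands. The windows are chr17:34197945-34198244 on the plus strand, chr17:34187281-34187580 on the minus strand, chr14:55578244-55578543 on the plus strand, chr14:54617946-54618245 on the minus strand and chr7:29180624-29180923 on the minus strand.
Psmb8: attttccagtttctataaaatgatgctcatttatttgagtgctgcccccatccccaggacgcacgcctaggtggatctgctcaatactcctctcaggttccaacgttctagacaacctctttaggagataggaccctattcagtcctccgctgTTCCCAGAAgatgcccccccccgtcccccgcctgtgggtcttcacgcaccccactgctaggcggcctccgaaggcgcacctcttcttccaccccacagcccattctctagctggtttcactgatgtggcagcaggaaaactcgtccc
Psmb9: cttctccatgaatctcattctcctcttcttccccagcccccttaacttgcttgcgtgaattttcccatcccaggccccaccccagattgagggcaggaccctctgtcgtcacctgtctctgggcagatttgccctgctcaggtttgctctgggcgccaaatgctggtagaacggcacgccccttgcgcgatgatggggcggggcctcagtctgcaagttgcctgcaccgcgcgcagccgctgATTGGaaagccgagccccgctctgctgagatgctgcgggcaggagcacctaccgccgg
Psme1: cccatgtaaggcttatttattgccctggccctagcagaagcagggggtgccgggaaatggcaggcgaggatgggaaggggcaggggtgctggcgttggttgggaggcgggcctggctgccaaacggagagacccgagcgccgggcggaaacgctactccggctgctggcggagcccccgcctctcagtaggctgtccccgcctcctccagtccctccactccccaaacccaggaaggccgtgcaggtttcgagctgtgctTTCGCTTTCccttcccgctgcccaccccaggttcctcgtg
Psmb5: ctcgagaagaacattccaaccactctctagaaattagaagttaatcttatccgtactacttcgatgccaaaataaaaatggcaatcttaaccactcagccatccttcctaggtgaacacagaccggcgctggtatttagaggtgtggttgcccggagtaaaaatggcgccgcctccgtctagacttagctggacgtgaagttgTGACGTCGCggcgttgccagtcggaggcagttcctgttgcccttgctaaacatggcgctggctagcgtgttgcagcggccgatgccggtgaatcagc
Psmd8: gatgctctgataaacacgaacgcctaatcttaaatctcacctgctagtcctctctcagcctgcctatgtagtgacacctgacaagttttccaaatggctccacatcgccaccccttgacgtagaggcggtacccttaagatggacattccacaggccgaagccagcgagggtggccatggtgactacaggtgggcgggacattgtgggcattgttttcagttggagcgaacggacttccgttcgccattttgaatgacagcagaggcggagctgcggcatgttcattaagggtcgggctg
Psmb8 holds a GAS match that begins 97 bases before the start, Psmb9 an NF-Y match 8 bases before it, Psme1 an ISRE match that begins 10 bases after the start, and Psmb5 an ARE match 47 bases before the start. Psmd8 holds none of the 4. The windows of Psmb9 and of Tap1, the peptide transporter gene that runs the other way, share 275 bases.

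Each library had between 15.3 and 20.5 M gene counts, and levels are CPM, counts per 1 M of the TMM-scaled library size. Hepatocyte markers, 7 genes such as Alb, summed to 81770.1 to 136673 CPM in the 16 libraries, although 1 of them, the urea cycle gene Ass1, was at 0 to 0.249 CPM throughout. These counts do not show by themselves that the livers lack Ass1 RNA, and their cause was not tested. EtOH 1 stood apart: on the second principal component of log2(CPM + 1), with 16.1% of the variance, it lay at 59.4 and the other libraries at -18.7 to 14.1. EtOH+MBV 1 lay at -0.881 on the first component, with 54.1% of the variance, against 34.0 to 41.5 for EtOH+MBV 2, 3 and 4, 30.5 to 45.5 for EtOH libraries and -39.5 to -27.1 for pair-fed libraries. The counts of members and the values of Psmb8, Psmb9 and Tap1 are also given without 1 or the other of these libraries. Tests are edgeR's quasi-likelihood tests in 1 fit of all 16 libraries, adjusted by Benjamini-Hochberg over all 12901 genes. A member is called higher or lower where its adjusted p is under 0.05. The error of a log2 fold change is the standard error derived from its test statistic (n = 4 per group).

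Levels between genes were compared per kilobase of exon. Among the alpha subunits, means ran in EtOH livers from 18.8 CPM per kilobase for Psma2 to 87.6 for Psma6. In PF livers they ran from 18.9 to 90.3 for the same genes. The low value of Psma2 rests on its GENCODE exon length of 2911 bases. That GENCODE locus overlaps AW209491 on the same strand, while the RefSeq models of the pair do not overlap. Before division by length, Psma2 averaged 54.67 CPM and Psma5 49.99 CPM in EtOH livers. In PF livers these means were 55.06 and 53.49 CPM. The effect of the overlap on the Psma2 counts was not tested. The 3 constitutive catalytic subunits had 36.1 (Psmb5) to 93.1 (Psmb6) CPM per kilobase in EtOH livers, and 33.8 (Psmb5) to 109 (Psmb7) in PF livers. The 6 ATPases ran from 34.5 to 77.1 in EtOH livers and from 34.1 to 66.5 in PF livers, with Psmc6 lowest and Psmc1 highest in both. Immunoproteasome catalytic subunits were lower per kilobase, at 5.62 (Psmb9), 9.49 (Psmb8) and 19.1 (Psmb10) in EtOH livers, and 8.72, 12.7 and 17.4 for the same genes in PF livers. The 7 assembly chaperones had medians of 7.20 CPM per kilobase in EtOH livers and 8.69 in PF livers. Psmb11, a subunit of the thymus proteasome, had 0 counts in all libraries, which allows up to 0.146 to 0.196 CPM in a library (3 counts, counting error only). Psma8, the testis form of an alpha subunit, had 2 to 38 counts per library and was tested. Psmc3ip, with 2 to 26 counts, was not tested, and it encodes a recombination protein named for binding PSMC3 and no subunit.

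Which subunits respond to the ethanol diet was asked first. In EtOH against PF livers, 4 members were higher (Psmd8, Psmd11, Psmc2, Psmd13), all of the regulatory particle, and 4 were lower (Psmd9, Psmg3, Psmg1, Psmb7), of which 3 are assembly chaperones and Psmb7 is a catalytic subunit. These 8 are 16.7% of the 48 tested members, where 39.8% of all tested genes were called (20.4% higher and 19.5% lower). Among the 8718 tested genes with means of 4.84 to 208 CPM, the range of the members without Psma8 and Psme2b, 42.7% were called. The median size of the log2 fold change was 0.11 over the members and 0.37 over all genes. Without EtOH 1, 7 members were higher (Psmd12, Psmc1 and Psme1 in addition) and 6 lower (Psmb8 and Psmb9 in addition). In that setting 2468 of all 13000 genes tested were higher and 2484 lower. Groups did not overlap for 6 members (12.5%), against 32.3% of all genes.

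**Figure D1:**
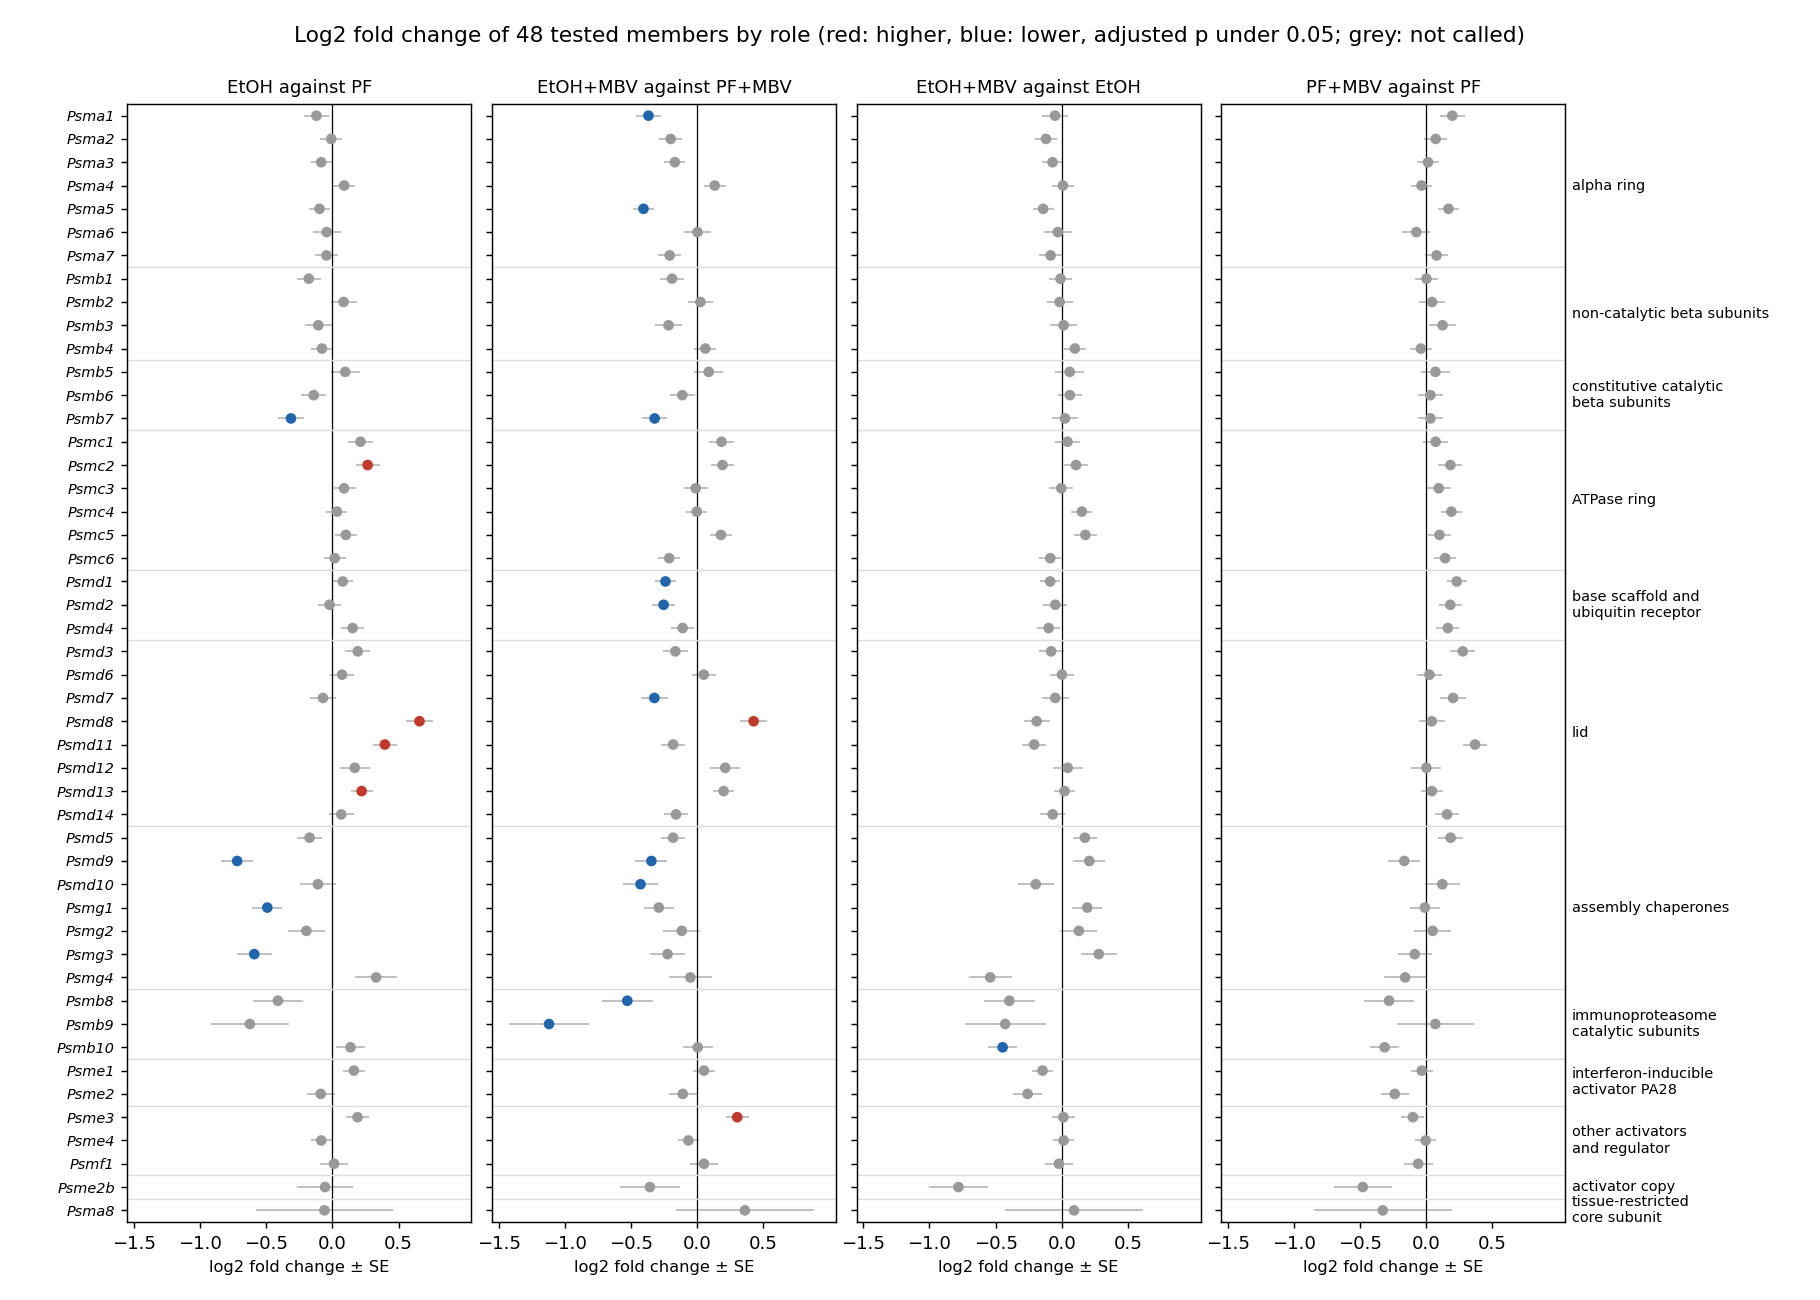
Log2 fold change (x axis, with standard error) of the 48 tested members, grouped by role down the page, in EtOH against PF, EtOH+MBV against PF+MBV, EtOH+MBV against EtOH and PF+MBV against PF. Red points are called higher and blue points lower at an adjusted p under 0.05. Called members number 8 and 12 in the diet comparisons, and 1 and 0 in the MBV comparisons.

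Of the 17 tested subunits of the regulatory particle 4 were higher in EtOH livers (23.5%, where 20.4% of all genes were higher) and 0 lower, and 15 had a positive log2 fold change (median 0.10). Psmd8, a lid subunit, stood at 125, 139, 149 and 156 CPM in EtOH+MBV livers, 186, 149.6, 162 and 149.9 in EtOH livers, 100.1, 105, 104 and 114 in PF+MBV livers and 91.8, 104, 104 and 111 in PF livers. Every ethanol-fed library, with or without MBV, lay above every pair-fed library, and EtOH 1 was the highest of all. Psmd8 was 1.58-fold higher in EtOH than in PF livers (log2 fold change 0.66 ± 0.10, adjusted p = 0.00011). Without EtOH 1 its log2 fold change was 0.58, adjusted p = 0.000195.

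Psmd11, a lid subunit that bridges lid and core, stood at 77.5, 95.6, 85.7 and 87.5 CPM in EtOH+MBV livers, 101, 93.2, 107 and 98.9 in EtOH livers, 109.7, 90.6, 95.9 and 96.1 in PF+MBV livers and 67.6, 81.2, 79.8 and 75.3 in PF livers. The EtOH and PF+MBV libraries all lay above the PF libraries, and the EtOH+MBV libraries overlapped all 3 other groups. Psmd11 was 1.32-fold higher in EtOH than in PF (log2 fold change 0.40 ± 0.09, adjusted p = 0.0031). Psmc2, an ATPase of the ring, averaged 87.1 ± 9.16 CPM in EtOH livers and 72.4 ± 4.16 CPM in PF livers (SD, n = 4 each; log2 fold change 0.27 ± 0.09, adjusted p = 0.027), and the lowest EtOH library, at 78.01 CPM, lay just below the highest PF library, at 78.03 CPM. Psmd13, another lid subunit, averaged 72.6 ± 7.38 CPM in EtOH livers and 62.2 ± 2.93 CPM in PF livers (log2 fold change 0.22 ± 0.08, adjusted p = 0.042), also with overlap. The calls of Psmc2 and Psmd13 were lost on leaving out any of several single libraries: PF 1, PF 2, PF 3, EtOH 3 or EtOH 4 for Psmc2, and these or EtOH 2 for Psmd13. Over the other 13 subunits log2 fold changes were smaller, the lowest being Psmd7, the lid partner of the deubiquitinase Psmd14 (log2 fold change -0.07 ± 0.10, adjusted p = 0.60).

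In the constitutive core 14 subunits were tested. Of these 1 was lower (7.14%, where 19.5% of all genes were lower), 0 were higher, and 11 had a negative log2 fold change (median -0.08), or 9 when scaled by library totals only. Psmb7, which carries the trypsin-like site, stood at 112, 102, 97.6 and 102 CPM in EtOH+MBV livers, 83.8, 100.1, 117 and 105 in EtOH livers, 123, 132, 133 and 127 in PF+MBV livers and 119.7, 123, 125 and 136 in PF livers. Both ethanol-fed groups lay below both pair-fed groups with no overlap. Psmb7 was 1.24-fold lower in EtOH than in PF (log2 fold change -0.31 ± 0.10, adjusted p = 0.016). Part of the Psmb7 locus overlaps Nek6 on the other strand in GENCODE, and these libraries carry no strand information. Psmb5, with the chymotrypsin-like site, averaged 32.5 ± 3.64 CPM in EtOH livers and 30.4 ± 4.71 CPM in PF livers (adjusted p = 0.51; 95% interval of the log2 fold change -0.14 to 0.34). Psmb6, with the caspase-like site, averaged 74.3 ± 7.84 CPM in EtOH livers and 82.0 ± 7.15 CPM in PF livers (adjusted p = 0.24; interval -0.34 to 0.06). The other core subunits ran from Psmb1 (-0.18 ± 0.09) to Psma4 (0.09 ± 0.08) on the log2 scale, and none was called.

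Assembly chaperones, which leave the particle once it is built, gave 3 of the 4 lower calls. These are 3 of 7 tested chaperones (42.9%), where 19.5% of all genes were lower, and 0 chaperones were higher. Psmd9, a chaperone of the ATPase ring, stood at 43.1, 34.0, 40.6 and 41.0 CPM in EtOH+MBV livers, 33.0, 33.7, 34.0 and 36.8 in EtOH livers, 49.8, 49.4, 50.02 and 52.6 in PF+MBV livers and 56.8, 42.0, 57.2 and 70.4 in PF livers. EtOH libraries all lay below PF libraries, and EtOH+MBV libraries below PF+MBV libraries. Psmd9 was 1.65-fold lower in EtOH than in PF (log2 fold change -0.72 ± 0.12, adjusted p = 0.00028). In GENCODE the Psmd9 locus overlaps Hpd, a liver enzyme gene on the other strand, while the RefSeq models of the pair do not overlap, and the sources used here do not name the annotation behind the counts.

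Psmg3, which with Psmg4 helps build the alpha ring, stood at 8.28, 7.50, 8.60 and 6.47 CPM in EtOH+MBV livers, 6.34, 5.41, 6.58 and 7.09 in EtOH livers, 9.05, 8.87, 9.01 and 9.11 in PF+MBV livers and 10.5, 8.33, 8.53 and 10.9 in PF livers. All EtOH libraries lay below all PF libraries, and the PF+MBV libraries lay close together. Psmg3 was 1.51-fold lower in EtOH than in PF (log2 fold change -0.59 ± 0.13, adjusted p = 0.0024). Psmg1, the partner of Psmg2 in an early chaperone pair, stood at 15.5, 12.8, 12.9 and 13.1 CPM in EtOH+MBV livers, 12.9, 12.8, 10.5 and 11.3 in EtOH livers, 16.3, 15.8, 16.4 and 17.8 in PF+MBV livers and 17.7, 17.0, 13.9 and 18.3 in PF livers. EtOH lay below PF without overlap (log2 fold change -0.49 ± 0.11, adjusted p = 0.0027). Psmg4 was not called (log2 fold change 0.33 ± 0.16, adjusted p = 0.11), nor were Psmg2, Psmd5 and Psmd10. The calls of Psmd8, Psmd11, Psmd9, Psmg3 and Psmg1 held under all 15 other settings, with each EtOH or PF library left out in turn among them.

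**Figure D2:**
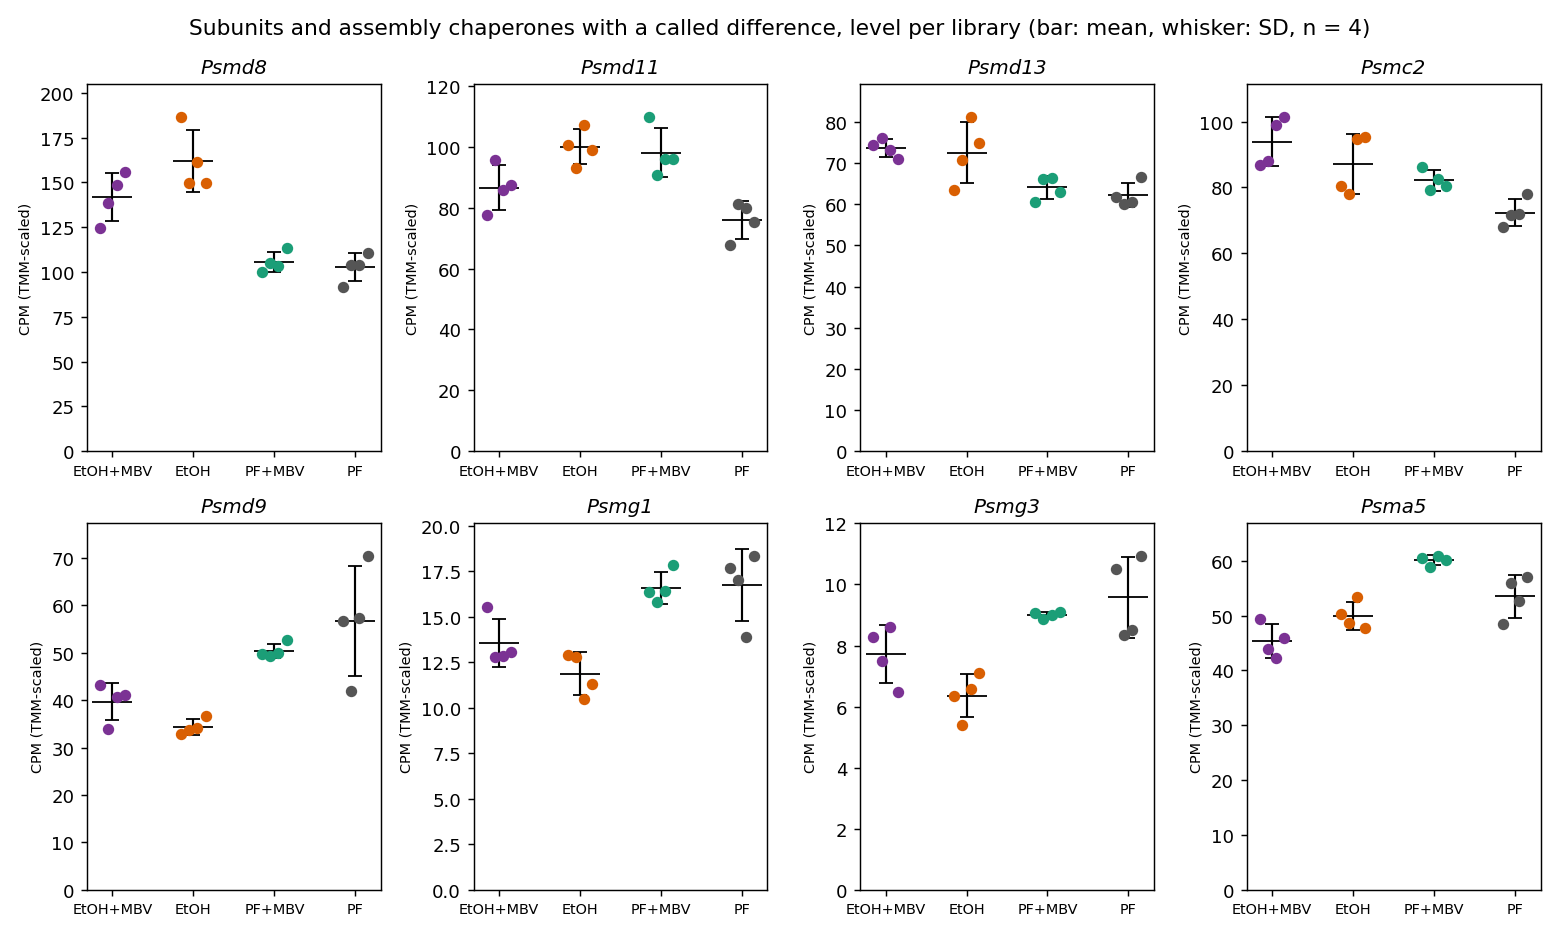
Level (y axis, TMM-scaled CPM from 0) of Psmd8, Psmd11, Psmd13, Psmc2, Psmd9, Psmg1, Psmg3 and Psma5 in each library (points), with the mean (bar) and SD (whisker, n = 4) of EtOH+MBV, EtOH, PF+MBV and PF from left to right. Psmd8 lies higher, and Psmd9 lower, in both ethanol-fed groups than in the pair-fed group given the same vehicle or MBV.

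The 5 inducible subunits were not called in EtOH against PF with all libraries. Psmb8, which replaces Psmb5, stood at 12.7, 15.6, 9.04 and 9.74 CPM in EtOH+MBV livers, 20.8, 16.1, 13.8 and 11.2 in EtOH livers, 17.1, 19.2, 14.5 and 17.1 in PF+MBV livers and 18.3, 23.7, 18.3 and 22.3 in PF livers. EtOH 1 was the highest EtOH library and lay within the PF range, and the other EtOH libraries lay below all PF libraries. The log2 fold change of Psmb8 was -0.41 ± 0.19 (adjusted p = 0.091), and without EtOH 1 it was -0.59 (adjusted p = 0.017), a call. Psmb9, which replaces Psmb6, stood at 10.2, 5.02, 3.50 and 3.83 CPM in EtOH+MBV livers, 11.1, 7.21, 7.05 and 5.03 in EtOH livers, 13.0, 13.2, 9.68 and 13.5 in PF+MBV livers and 10.9, 15.4, 8.57 and 12.3 in PF livers. Again EtOH 1 was the highest EtOH library, and EtOH+MBV 1 lay above the rest of its group. The log2 fold change of Psmb9 was -0.62 ± 0.30 (adjusted p = 0.11), and -0.87 without EtOH 1 (adjusted p = 0.032). In a bulk sample, fewer cells of a type and less RNA per cell cannot be told apart.

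Psmb10, which replaces Psmb7, stood at 16.9, 19.1, 19.9 and 17.8 CPM in EtOH+MBV livers, 27.1, 26.5, 26.4 and 20.2 in EtOH livers, 16.9, 20.7, 17.7 and 18.1 in PF+MBV livers and 21.6, 23.4, 20.7 and 25.5 in PF livers. EtOH libraries other than EtOH 4 lay above all PF libraries, yet the groups overlapped (log2 fold change 0.14 ± 0.11, adjusted p = 0.34). Psme1, a chain of the PA28 cap, stood at 61.8, 69.4, 65.9 and 60.8 CPM in EtOH+MBV livers, 63.0, 74.4, 71.4 and 76.2 in EtOH livers, 61.8, 65.3, 58.9 and 62.8 in PF+MBV livers and 58.7, 65.6, 64.9 and 65.5 in PF livers. EtOH libraries other than EtOH 1 lay above all PF libraries (log2 fold change 0.16 ± 0.08, adjusted p = 0.13), and without EtOH 1 Psme1 was called higher (0.22, adjusted p = 0.041). Psme2, its partner chain, stood at 45.4, 44.7, 34.6 and 36.8 CPM in EtOH+MBV livers, 52.8, 48.3, 51.5 and 40.5 in EtOH livers, 44.6, 45.2, 41.5 and 42.7 in PF+MBV livers and 52.2, 56.2, 46.0 and 51.0 in PF livers, with EtOH and PF overlapping (log2 fold change -0.09 ± 0.11, adjusted p = 0.53). So without EtOH 1 the called inducible members were Psmb8 and Psmb9, lower, and Psme1, higher.

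**Figure D3:**
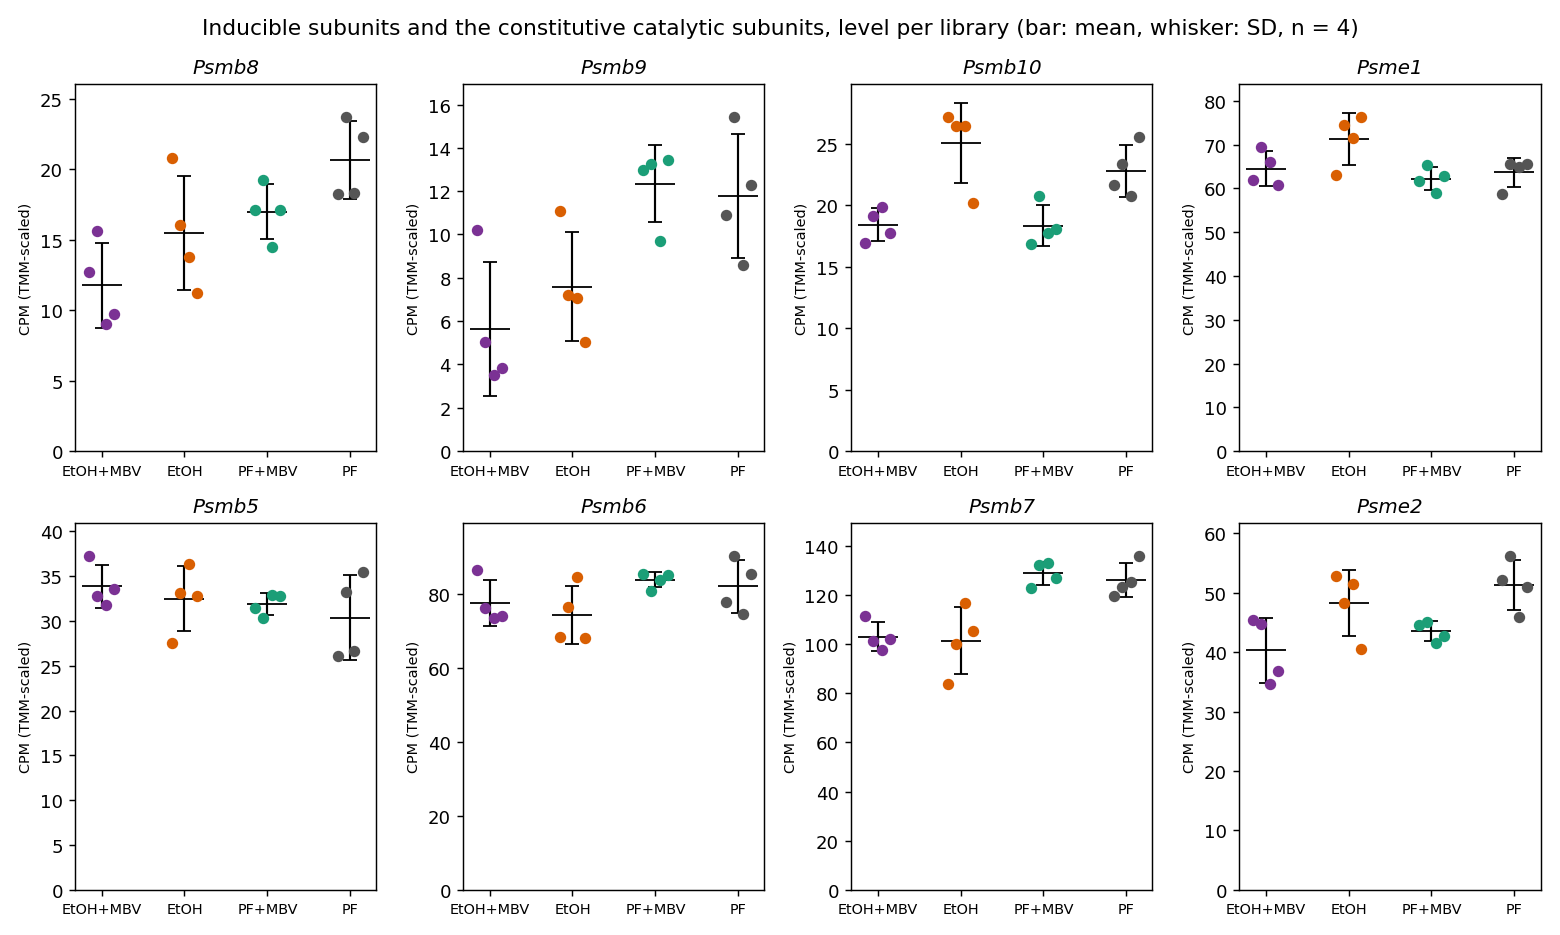
Level (y axis, TMM-scaled CPM from 0) of the inducible Psmb8, Psmb9, Psmb10, Psme1 and Psme2 and the constitutive catalytic Psmb5, Psmb6 and Psmb7 in each library (points), with the mean (bar) and SD (whisker, n = 4) of EtOH+MBV, EtOH, PF+MBV and PF from left to right. Psmb9 lies lowest in EtOH+MBV livers, apart from EtOH+MBV 1 at 10.2 CPM, and Psmb7 lies lower in both ethanol-fed groups.

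The same question asked in animals given MBV, EtOH+MBV against PF+MBV, shares no library with the first. Here 2 members were higher (Psmd8, Psme3) and 10 lower (Psma5, Psma1, Psmb9, Psmb7, Psmd7, Psmd10, Psmd1, Psmd9, Psmd2, Psmb8), or 25.0% of the 48, where 35.9% of all tested genes were called (19.2% higher and 16.7% lower). Scaled by library totals only, which moved the median of all genes to -0.15, 0 members were higher and 16 lower. Without EtOH+MBV 1, 2 were higher and 14 lower, where 2777 of all 13067 genes then tested were higher and 2557 lower. Groups did not overlap for 21 members (43.8%), against 39.0% of all genes. Psmb9 was 2.17-fold lower in EtOH+MBV than in PF+MBV (log2 fold change -1.12 ± 0.30, adjusted p = 0.0093), and its log2 fold change was -1.58 without EtOH+MBV 1 (adjusted p = 0.00019). Its groups overlapped, since EtOH+MBV 1 lay above PF+MBV 3. Psmb8 was 1.44-fold lower (log2 fold change -0.53 ± 0.19, adjusted p = 0.04), also with overlap, and its call was lost on leaving out EtOH+MBV 3, EtOH+MBV 4, PF+MBV 1, PF+MBV 2 or PF+MBV 4. Psmb10 (log2 fold change 0.01 ± 0.11, adjusted p = 0.98), Psme1 (log2 fold change 0.05 ± 0.08, adjusted p = 0.65) and Psme2 (log2 fold change -0.11 ± 0.11, adjusted p = 0.45) were not called, and Psme1 and Psmb10 turned negative when scaled by library totals only (-0.0923 and -0.14). For Psmb10 the interval of the log2 fold change was -0.24 to 0.25.

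Of the 14 constitutive core subunits 3 were lower and 0 higher (21.4% called, where 35.9% of all genes were called, 19.2% higher and 16.7% lower). Psma5, of the alpha ring, stood at 49.3, 43.9, 42.3 and 45.9 CPM in EtOH+MBV livers and 60.5, 58.8, 60.9 and 60.2 CPM in PF+MBV livers. The groups lay well apart, and the PF+MBV libraries were close together (log2 fold change -0.41 ± 0.08, adjusted p = 0.001). Psma1, of the same ring, stood at 71.2, 65.2, 61.0 and 62.3 CPM in EtOH+MBV livers and 82.8, 83.7, 78.8 and 89.7 CPM in PF+MBV livers, with no overlap (log2 fold change -0.37 ± 0.10, adjusted p = 0.0077). Psmb7 was 1.25-fold lower (log2 fold change -0.32 ± 0.10, adjusted p = 0.016), while Psmb5 (adjusted p = 0.56; interval -0.15 to 0.33) and Psmb6 (adjusted p = 0.36; interval -0.31 to 0.09) were not called.

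In the regulatory particle 1 of 17 was higher and 3 were lower (23.5% called, where 35.9% of all genes were called, 19.2% higher and 16.7% lower). Psmd8 was 1.34-fold higher (log2 fold change 0.43 ± 0.10, adjusted p = 0.0036). The lid subunit Psmd7 (log2 fold change -0.32 ± 0.10, adjusted p = 0.021) and the base scaffolds Psmd1 (log2 fold change -0.24 ± 0.08, adjusted p = 0.023) and Psmd2 (log2 fold change -0.25 ± 0.09, adjusted p = 0.036) were lower, each without overlap. Psme3, the nuclear PA28 gamma, stood at 64.3, 79.1, 79.5 and 76.5 CPM in EtOH+MBV livers and 60.5, 57.5, 64.2 and 60.3 CPM in PF+MBV livers. The lowest EtOH+MBV library lay just above the highest PF+MBV library (log2 fold change 0.30 ± 0.09, adjusted p = 0.012). Among the chaperones Psmd10 (gankyrin) was lower (log2 fold change -0.43 ± 0.13, adjusted p = 0.021), as was Psmd9 (log2 fold change -0.35 ± 0.12, adjusted p = 0.035). The calls of Psmd9 and Psmd2 were lost on leaving out any library of either group but EtOH+MBV 1. The call of Psmd1 was lost without EtOH+MBV 3, EtOH+MBV 4, PF+MBV 2 or PF+MBV 3, that of Psmd7 without EtOH+MBV 2, EtOH+MBV 4, PF+MBV 3 or PF+MBV 4, that of Psmd10 without EtOH+MBV 2, EtOH+MBV 4 or PF+MBV 3, and that of Psmb7 without EtOH+MBV 3. Psma5, Psma1, Psmb9, Psmd8 and Psme3 kept their calls with each of the 8 libraries left out in turn.

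Called in both diet comparisons, and in the same direction, were Psmd8, Psmd9 and Psmb7. They make up 37.5% of the 8 members called in EtOH against PF and 25.0% of the 12 called in EtOH+MBV against PF+MBV. The matching shares over all tested genes were not counted, so whether these are high or low for this table is not known. The log2 fold change had the same sign for 36 of 48 members (75.0%), against 71.9% of all tested genes. Pearson's r of the log2 fold changes was 0.68 across the members (n = 48 genes, Spearman's rho 0.69) and 0.65 across all tested genes, where the genes of a comparison share their libraries.

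**Figure D4:**
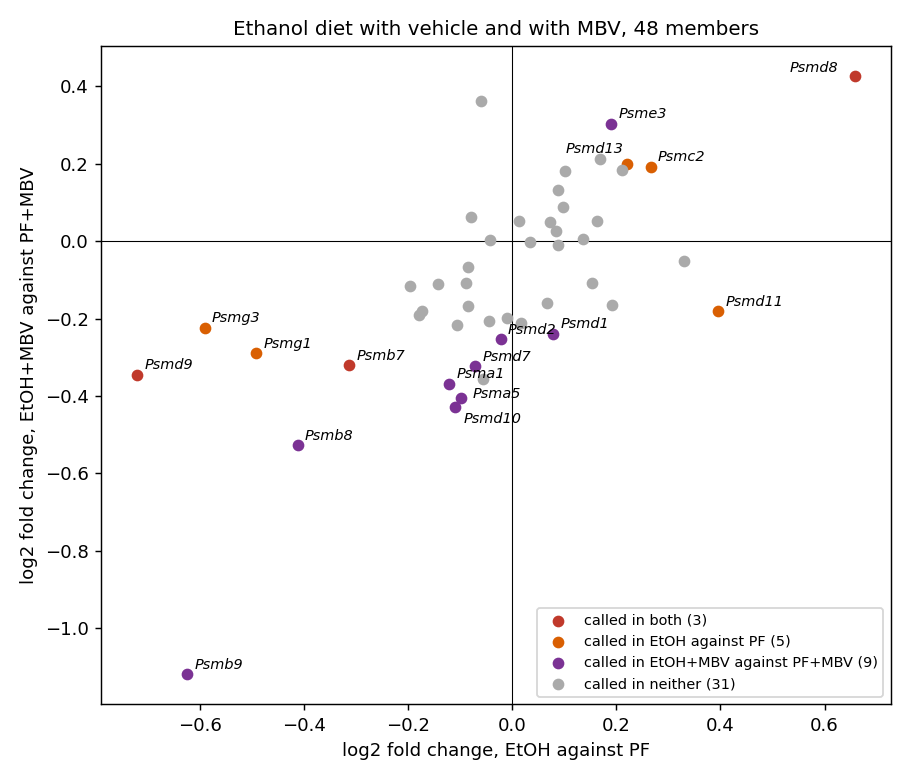
Log2 fold change of each of the 48 members in EtOH against PF (x axis) and in EtOH+MBV against PF+MBV (y axis), comparisons that share no library, with the called members named and coloured by where they were called. Psmd8 lies at the upper right, Psmd9 and Psmb7 at the lower left, and Psmb9 lowest at -1.12 on the y axis.

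What MBV did on the ethanol diet was compared in EtOH+MBV against EtOH livers. Of the 48 members, Psmb10 alone was called, lower by 1.36-fold (log2 fold change -0.45 ± 0.11, adjusted p = 0.045), or 2.08% of members where 2.69% of all genes were called (1.24% higher and 1.45% lower). Its EtOH+MBV libraries all lay below its EtOH libraries, but the call held under 3 of 15 other settings. It was lost without EtOH 1, EtOH 2 or EtOH 3, or without any 1 of the EtOH+MBV libraries. Groups did not overlap for Psmb10 and Psme2b (4.17% of members), against 7.60% of all genes. All 5 inducible members had a negative log2 fold change, with a median of -0.40 (-0.20 without EtOH 1), where the median was -0.02 over the 31 constitutive subunits and 0.01 over all genes. Psmb8 had -0.40 ± 0.19 (adjusted p = 0.25) and Psmb9 -0.43 ± 0.31 (adjusted p = 0.45). Without EtOH 1 these were -0.21 (adjusted p = 0.62) and -0.17 (adjusted p = 0.84). Without EtOH+MBV 1 they were -0.44 (adjusted p = 0.24) and -0.89 (adjusted p = 0.072). Psme2 had -0.26 ± 0.11 (adjusted p = 0.18) and Psme1 -0.14 ± 0.08 (adjusted p = 0.33). Psme2b is a near copy of Psme2 and the pair may lose or swap reads, so both are uncertain (log2 fold change -0.78 ± 0.22, adjusted p = 0.066). None of Psmb5, Psmb6 and Psmb7 was called (adjusted p = 0.80, adjusted p = 0.75 and adjusted p = 0.91), with intervals of -0.18 to 0.30, -0.14 to 0.26 and -0.18 to 0.23.

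On the pair-fed diet, PF+MBV against PF, edgeR called 0 of 48 members, where 1.78% of all genes were called (0.752% higher and 1.03% lower). At an unadjusted p under 0.05 there were 8 of 48 members, where 2181 of all 12901 genes were under it. DESeq2 called 2 members higher (Psmd1 and Psmd11), where it called 293 of all 12901 genes higher and 372 lower. Groups did not overlap for 7 members (14.6%), against 15.0% of all genes. All 17 subunits of the regulatory particle had a positive log2 fold change (median 0.16, all genes 0.0038), or 16 of 17 with DESeq2's size factors, with the highest in Psmd11 (log2 fold change 0.37 ± 0.09, adjusted p = 0.051), where the PF+MBV libraries all lay above the PF libraries. Psmb10 had -0.31 ± 0.11 (adjusted p = 0.15) and Psme2 -0.24 ± 0.11 (adjusted p = 0.27), in both cases with all PF+MBV libraries below all PF libraries. Psmb8 had -0.28 ± 0.19 (adjusted p = 0.49), Psmb9 0.07 ± 0.29 (adjusted p = 0.94) and Psme1 -0.03 ± 0.08 (adjusted p = 0.88). None of Psmb5, Psmb6 and Psmb7 was called (adjusted p = 0.82, adjusted p = 0.91 and adjusted p = 0.91), with intervals of -0.17 to 0.31, -0.17 to 0.23 and -0.18 to 0.24.

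Whether MBV acted differently on the diets was tested with the interaction, the log2 fold change of EtOH+MBV against EtOH minus that of PF+MBV against PF. Of the 48 members 1 passed, Psmd11 (2.08%, where 4.11% of all genes passed, 2.02% with a positive and 2.09% with a negative difference). Psmd11 had -0.21 ± 0.09 with MBV on the ethanol diet and 0.37 ± 0.09 on the pair-fed diet, a difference of -0.58 ± 0.13 (adjusted p = 0.025). It was lowest in PF livers and highest in EtOH and PF+MBV livers, whose libraries overlapped. The call was lost without PF 1, EtOH+MBV 3, PF+MBV 1 or PF+MBV 4, and the difference stayed between -0.76 and -0.51 under all 22 other settings. No inducible member passed (adjusted p of 0.51 for Psmb9, 0.65 for Psmb10, 0.83 for Psmb8, 0.60 for Psme1 and 0.96 for Psme2), and for Psmb9 the interval of the difference was -1.42 to 0.42. The difference for Psmb9 was -0.50 ± 0.42 with all libraries, -0.96 ± 0.34 without EtOH+MBV 1 (adjusted p = 0.097) and -0.24 ± 0.41 without EtOH 1 (adjusted p = 0.78).

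The balance of immunoproteasome and constitutive subunits was described per kilobase in each library. Psmb8, Psmb9 and Psmb10 together made up 10.2% ± 0.817 of the 6 catalytic subunits in EtOH+MBV livers, 13.7% ± 3.15 in EtOH livers, 11.8% ± 1.12 in PF+MBV livers and 13.6% ± 0.808 in PF livers (SD, n = 4 each). EtOH livers ran from 10.9% to 18.1%, with EtOH 1 highest, and averaged 12.3% without it. EtOH+MBV livers ran from 9.32% to 11.3%, PF+MBV livers from 10.3% to 13.1% and PF livers from 12.6% to 14.6%, so EtOH+MBV and PF libraries did not overlap. The 3 subunits differed in their order over the groups. Taken per kilobase, the ratio of Psmb8 to Psmb5 averaged 0.192 in EtOH+MBV livers, 0.270 in EtOH livers, 0.296 in PF+MBV livers and 0.376 in PF livers. For Psmb9 over Psmb6 it was 0.0418 in EtOH+MBV livers, 0.0611 in EtOH livers, 0.0870 in PF+MBV livers and 0.0841 in PF livers. Psmb10 over Psmb7 ran in another order, at 0.159 in EtOH+MBV livers, 0.223 in EtOH livers, 0.126 in PF+MBV livers and 0.160 in PF livers. Psme1 and Psme2 over the 3 constitutive catalytic subunits gave 0.445 in EtOH+MBV livers, 0.528 in EtOH livers, 0.400 in PF+MBV livers and 0.449 in PF livers.

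**Figure D5:**
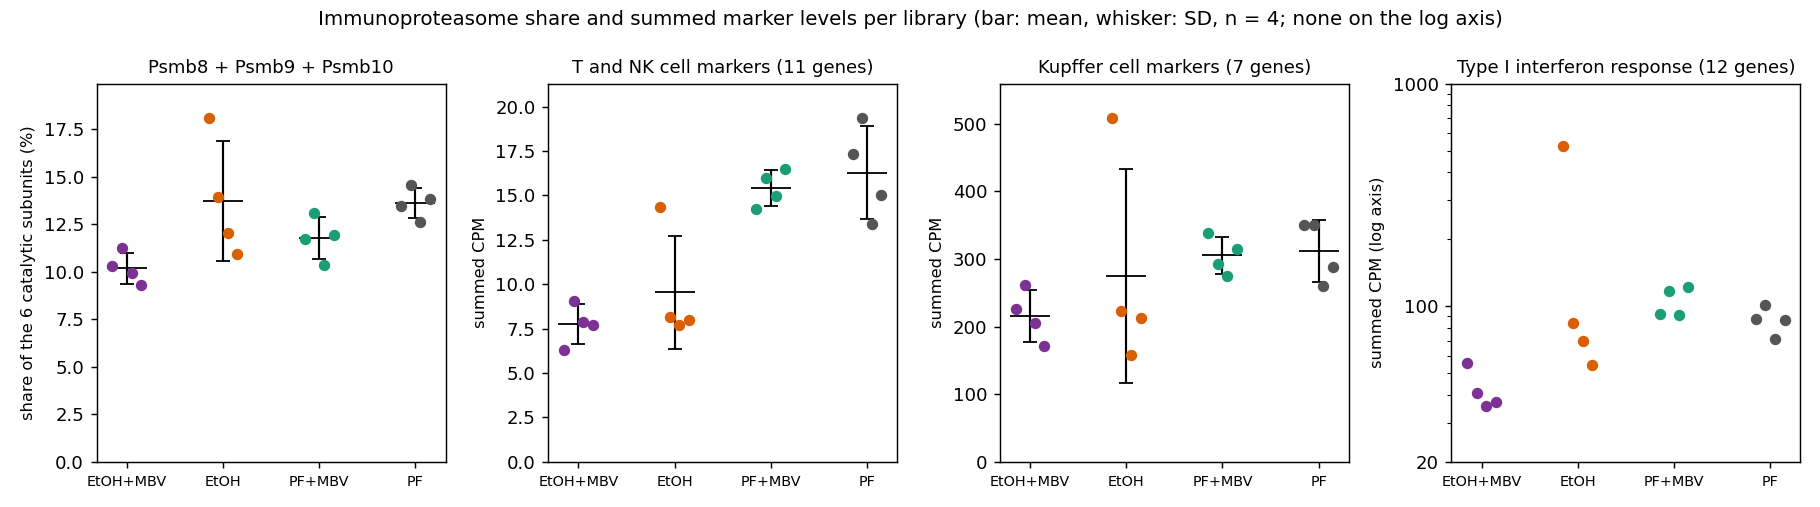
Share of Psmb8, Psmb9 and Psmb10 among the 6 catalytic subunits (percent, per length), and summed CPM of T and NK cell markers, Kupffer cell markers and type I interferon response genes (log axis), in each library (points) of EtOH+MBV, EtOH, PF+MBV and PF, with the mean (bar) and SD (whisker, n = 4) where the axis is linear. EtOH 1 is the highest EtOH library in all 4 panels.

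Summed levels of T and NK cell, B cell, Kupffer cell, and monocyte and macrophage markers and of interferon response genes lay lower in all EtOH+MBV than in all PF+MBV libraries, and those of neutrophil and dendritic cell markers overlapped. Hepatocyte marker sums lay higher, at 112507 to 127443 CPM in EtOH+MBV livers and 81770.1 to 96590.3 CPM in PF+MBV livers. Of the 6 hepatocyte markers tested, 3 were higher and 0 lower, where 19.2% of all genes were higher and 16.7% lower. Cholangiocyte sums also lay higher, hepatic stellate cell sums lower, and liver endothelial cell sums overlapped. The 11 T and NK cell markers counted summed to 6.31 to 9.04 CPM in EtOH+MBV livers, 7.72 to 14.3 in EtOH livers with EtOH 1 highest, 14.2 to 16.5 in PF+MBV livers and 13.4 to 19.4 in PF livers. Most of this sum is Ptprc (CD45), which marks all leukocytes, at 4.11 to 6.63 CPM in EtOH+MBV livers, 5.41 to 12.8 in EtOH livers, 10.1 to 12.4 in PF+MBV livers and 8.87 to 13.8 in PF livers. The 10 other markers summed to 2.01 to 2.41 CPM in EtOH+MBV livers, 1.5 to 2.73 in EtOH livers with EtOH 1 lowest, 3.59 to 4.58 in PF+MBV livers and 4.10 to 5.58 in PF livers. Ncr1 was at 0 in all EtOH+MBV libraries. Of the 3 tested in EtOH+MBV against PF+MBV, 2 were lower, where 16.7% of all genes were lower. These were Ptprc (log2 fold change -1.06 ± 0.25, adjusted p = 0.0037) and Cd4 (log2 fold change -1.86 ± 0.48, adjusted p = 0.0067). The 5 B cell markers summed to 0.565 to 1.00 CPM in EtOH+MBV livers, 0.403 to 1.75 in EtOH livers, 2.13 to 3.82 in PF+MBV livers and 1.43 to 3.13 in PF livers. These sums are low and rest on few reads. Only 2 of the 5 had enough counts to be tested, and 1 was lower in EtOH+MBV against PF+MBV. The 7 Kupffer cell markers summed to 171 to 262 CPM in EtOH+MBV livers, 158 to 509 in EtOH livers, 276 to 339 in PF+MBV livers and 259.9 to 350.4 in PF livers. In EtOH+MBV against PF+MBV 3 of 7 were lower and 0 higher, where 16.7% of all genes were lower. Among the 3 was Adgre1 (log2 fold change -1.24 ± 0.32, adjusted p = 0.0075). Marco ran the other way, at 8.94 to 32.5 CPM in EtOH+MBV livers and 4.06 to 10.8 in PF+MBV livers, with overlap. In EtOH against PF, 1 Kupffer marker was higher and 0 were lower, where 20.4% of all genes were higher and 19.5% lower. Without EtOH 1, 1 was higher and 5 lower, where 2468 of all 13000 genes were higher and 2484 lower. Monocyte and macrophage markers, 11 genes, summed to 56.0 to 81.2 CPM in EtOH+MBV livers, 64.6 to 181 in EtOH livers with EtOH 1 highest, 90.4 to 99.3 in PF+MBV livers and 83.3 to 114 in PF livers. Lyz2 and Spp1 made up most of this sum. Of the 10 tested, 2 were higher and 4 lower in EtOH+MBV against PF+MBV, where 19.2% of all genes were higher and 16.7% lower. In EtOH against PF, 4 of the 10 were higher and 2 lower, where 20.4% of all genes were higher and 19.5% lower. The 7 neutrophil markers summed to 2.63 to 8.92 CPM in EtOH+MBV livers, 2.62 to 10.8 in EtOH livers, 2.97 to 3.9 in PF+MBV livers and 2.99 to 11.1 in PF livers. For the 6 dendritic cell markers the sums were 5.16 to 7.43 CPM in EtOH+MBV livers, 4.65 to 10.8 in EtOH livers, 6.53 to 9.16 in PF+MBV livers and 6.23 to 9.82 in PF livers. The part of these cells in the lower Psmb8 and Psmb9 was not tested.

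The interferon-gamma response list had 15 genes, of which 13 were tested and Ifng itself was not. In EtOH+MBV against PF+MBV livers 7 of 13 were lower and 0 higher (median log2 fold change -1.02), where 16.7% of all genes were lower and 19.2% higher. Among the 7 was the chemokine gene Cxcl9 (log2 fold change -1.92 ± 0.37, adjusted p = 0.0011). Irf1, a transcription factor that drives Psmb9, was not called (log2 fold change -0.43 ± 0.19, adjusted p = 0.093). The 15 genes summed to 383.5 to 413 CPM in EtOH+MBV livers, 324 to 533 in EtOH livers, 496 to 565 in PF+MBV livers and 455 to 579 in PF livers. Most of the sum in EtOH+MBV and PF+MBV livers was Iigp1, at 231.1 to 290 and 266.6 to 325.5 CPM, with overlap. Type I interferon genes summed to 35.6 to 55.8 CPM in EtOH+MBV livers, 54.5 to 525 in EtOH livers with EtOH 1 highest, 91.0 to 122 in PF+MBV livers and 71.4 to 101 in PF livers. In EtOH 1, Rsad2 alone stood at 267 CPM. Of 12 such genes 7 were lower and 0 higher in EtOH+MBV against PF+MBV, against the same shares of all genes. In EtOH against PF, 2 of the 13 interferon-gamma genes were higher and 3 lower, and without EtOH 1, 0 were higher and 6 lower. Of all genes 20.4% were higher and 19.5% lower in EtOH against PF, and without EtOH 1, 2468 and 2484 of 13000. Of the 12 type I genes 2 were higher and 0 lower in EtOH against PF, and 1 was higher and 5 lower without EtOH 1. Their part in the inducible subunits was not tested either.

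Tap1, the transporter gene next to Psmb9, stood at 20.1, 10.9, 15.1 and 10.6 CPM in EtOH+MBV livers, 49.6, 19.1, 19.1 and 13.8 in EtOH livers, 26.9, 26.1, 20.4 and 27.7 in PF+MBV livers and 20.5, 32.0, 20.3 and 20.3 in PF livers. EtOH 1 was the highest of all libraries, and the other EtOH libraries averaged 17.4 ± 3.08 CPM (SD, n = 3), each below all PF libraries. In EtOH against PF the log2 fold change was 0.13 ± 0.32 (adjusted p = 0.76), and without EtOH 1 it was -0.42 ± 0.22 (adjusted p = 0.14). In EtOH+MBV against PF+MBV its groups did not overlap and it missed the threshold (log2 fold change -0.83 ± 0.32, adjusted p = 0.053), and without EtOH+MBV 1 the log2 fold change was -1.05 ± 0.34 (adjusted p = 0.023), a call. The Tap1 and Psmb9 loci overlap by 212 bases on opposite strands in GENCODE, while their RefSeq models do not overlap. With no strand information, reads there may be lost to both genes, and the effect on their counts was not tested. Of the 13 genes of MHC class I peptide presentation, 0 were called in EtOH against PF (39.8% of all genes), and 1 was higher and 2 lower in EtOH+MBV against PF+MBV (19.2% and 16.7% of all genes). These were Nlrc5, the activator of class I genes (log2 fold change 0.72 ± 0.19, adjusted p = 0.0085), B2m, the class I light chain (log2 fold change -0.35 ± 0.11, adjusted p = 0.017), and the chaperone Canx (log2 fold change -0.37 ± 0.09, adjusted p = 0.0071). In EtOH+MBV against EtOH 1 was lower, Tapbp, which loads peptides (log2 fold change -0.48 ± 0.11, adjusted p = 0.035).

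Among partners of the proteasome outside the Psm names, 12 were tested in EtOH against PF. Of these 4 were higher (33.3%, where 20.4% of all genes were higher) and 0 lower: Adrm1, a ubiquitin receptor of the base (log2 fold change 0.31 ± 0.09, adjusted p = 0.012), Ube3c, a ligase bound to the proteasome (log2 fold change 0.24 ± 0.09, adjusted p = 0.037), Zfand2a, a partner induced by arsenite (log2 fold change 0.64 ± 0.14, adjusted p = 0.0025), and Zfand5, an activator of the proteasome (log2 fold change 0.50 ± 0.17, adjusted p = 0.03). Zfand2a was also lower in EtOH+MBV than in EtOH (log2 fold change -0.73 ± 0.14, adjusted p = 0.021), and its interaction passed (-0.93 ± 0.20, adjusted p = 0.023). Pomp, the chaperone of core assembly, was not called (log2 fold change -0.13 ± 0.12, adjusted p = 0.40). Among genes of ubiquitin and delivery, Sqstm1 (p62; log2 fold change 0.88 ± 0.24, adjusted p = 0.0097) and the shuttle Rad23b (log2 fold change 0.28 ± 0.09, adjusted p = 0.019) were higher in EtOH than in PF, and Ubqln4 was lower (log2 fold change -0.42 ± 0.10, adjusted p = 0.004).

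Of the 4 genes that control proteasome expression, 1 was called in EtOH against PF, where 39.8% of all genes were called. Ngly1, which processes the transcription factor Nfe2l1, was lower (log2 fold change -0.36 ± 0.11, adjusted p = 0.017). Nfe2l1 itself, which raises proteasome genes when proteasome activity drops, was not (log2 fold change -0.05 ± 0.10, adjusted p = 0.73; interval -0.26 to 0.17), nor was Nfe2l2, which encodes NRF2 (log2 fold change -0.30 ± 0.13, adjusted p = 0.077). Ddi2, the protease that activates Nfe2l1, was higher in EtOH+MBV than in PF+MBV (log2 fold change 0.72 ± 0.16, adjusted p = 0.0025). NRF2 target genes summed to 506 to 807 CPM in EtOH+MBV livers, 971 to 1971 in EtOH livers, 678 to 916 in PF+MBV livers and 406 to 521 in PF livers. Of these 7 genes 5 were higher in EtOH than in PF, where 20.4% of all genes were higher.

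Promoter motifs were counted over the members. Chromosome 18 was left out of the search, for the members and for the promoters they are set against. Of the 50 members 42 had a window in the search. The remaining ones are Psmd3, Psmb1, Psmb7, Psmc3, Psmb2 and Psmd7, and also Psma8 and Psmg2, which lie on chromosome 18. A GAS match was found in 3 of 42 (7.14%; Psmb8, Psmd2 and Psmg1), against 8.37% of 27025 promoters. An ISRE match was in 6 (14.3%; Psmb3, Psmb4, Psmd4, Psmd9, Psme1 and Psmg4), against 8.56%. An ARE match was in 6 (14.3%; Psmb5, Psmb6, Psmc6, Psmd12, Psmd9 and Psme4), against 12.4%, and an NF-Y box in 15 (35.7%), against 37.8%. A match describes letters in a window and no site.

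Within groups the median coefficient of variation was lower over the members than over the 8718 tested genes with means of 4.84 to 208 CPM. That range was set without the low Psma8 and Psme2b, which are among the members here, and levels were not matched within it. The part of level in this difference was not tested. The median coefficient of variation over the members was 7.00% in EtOH+MBV livers, 10.2% in EtOH livers, 4.39% in PF+MBV livers and 7.84% in PF livers. Tested genes within the same range of level had medians of 13.3% in EtOH+MBV livers, 16.2% in EtOH livers, 7.98% in PF+MBV livers and 11.6% in PF livers. Psmb9 was the most variable member in EtOH+MBV (55.1%) and EtOH livers (33.3%). The low Psma8 was so in PF+MBV (20.9%) and PF livers (71.7%).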

How the data were processed

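The deposited files hold reads counted per gene in each library, and the authors' count values were used as deposited. Per the submitters' processing notes, Trimmomatic, STAR and the build mm10 were used, and the sources used here do not name the annotation. The unstranded column was taken, since both stranded columns held about equal shares (50.6% to 51.8% in the first). Rows that name no gene were left out: unmapped reads were 11.6% to 19.9% of a library, multimapping 4.57% to 7.58%, reads without a feature 9.40% to 10.9% and ambiguous reads 1.35% to 1.69%.

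The members and gene lists were chosen with earlier results of these data known. Genes were kept by filterByExpr (minimum count 10) and scaled by TMM (factors 0.863 to 1.269). edgeR 4.0.16 (R 4.3.3) fitted group means by quasi-likelihood over the 16 libraries together, with limma 3.58.1 and DESeq2 1.42.0 as alternatives. It was checked on simulated counts. Intervals are at 95% with 12 residual degrees of freedom. Exon lengths are from GENCODE (GRCm38) and promoters from RefSeq (GRCm38.p6). Named are the inducible and constitutive catalytic subunits, untested members, up to 8 called members per direction, the extremes of each role in EtOH against PF, and up to 4 genes per list by p. Psme2b was given its role after the files were seen, and it, Pomp and Ass1, which fall outside the rule, were named after their values were seen. Replicate numbers did not pair libraries. Paaf1 was not analysed here, and some listed genes are not reported here.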

Additional observations from a re-analysis of the deposited data

Results flagged for a closer look

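In 9 of 192 groups of 4 libraries a library lay far from the other 3 relative to the group's range, where chance gives about 1 in 20, or 9.6. In EtOH+MBV livers this was Psmg1 in EtOH+MBV 1, at 15.5 CPM. In EtOH livers these were Psmf1 in EtOH 2, at 27.5 CPM, Psmb4 in EtOH 3, at 123 CPM, and Psmb10 in EtOH 4, at 20.2 CPM against 26.4 to 27.1 CPM in the others. In PF+MBV livers these were Psmb9 in PF+MBV 3, at 9.68 CPM against 13.0 to 13.5 CPM, and Psmc4 in PF+MBV 1, at 73.7 CPM. In PF livers these were Psme1 in PF 1, at 58.7 CPM against 64.9 to 65.6 CPM, Psmd2 in PF 2, at 221 CPM, and Psma4 in PF 2, at 92.7 CPM. The effect of MBV differed between the diets for Psmd11 (log2 difference -0.58) and Zfand2a (log2 difference -0.93), by edgeR's interaction test.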

How the results depend on the processing

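Of 592 recomputed values for 39 single results, 508 kept direction and side of the threshold, 70 lost the call, 5 gained one and 9 changed sign, none of them a called result. Scaling by library totals set the median log2 fold change of all genes to 0.06 in EtOH against PF, -0.11 in EtOH+MBV against EtOH, 0.07 in PF+MBV against PF, -0.15 in EtOH+MBV against PF+MBV, with -0.18 for the interaction. Calls over all genes were then 60 higher and 136 lower in EtOH+MBV against EtOH (160 and 187 with TMM), 1446 higher with 2686 lower in EtOH+MBV against PF+MBV (2478 higher with 2155 lower), 87 higher with 81 lower in PF+MBV against PF (97 higher with 133 lower), and 93 higher with 256 lower in the interaction (261 higher with 269 lower). Under it 0 members were lower in EtOH+MBV against EtOH (1 in the main analysis), and in EtOH+MBV against PF+MBV 0 were higher (2) and 16 lower (10). Signs turned for Psme1 in PF+MBV against PF (0.0316), and for Psme1 (-0.0923) and Psmb10 (-0.14) in EtOH+MBV against PF+MBV. Without the count filter 2 were higher in EtOH against PF (4) and 0 lower in EtOH+MBV against EtOH. Of all 18870 genes then tested, 2493 were higher in the first comparison and 165 lower in the second. In fits of the compared groups only, 2 were higher in EtOH against PF, 0 lower in EtOH+MBV against EtOH, 1 higher in PF+MBV against PF (0) and 5 higher in EtOH+MBV against PF+MBV. Over all genes these fits called, in the same order, 1928 higher, 0 lower, 539 higher and 2894 higher. The main analysis called 2627, 187, 97 and 2478 of all genes. DESeq2 called 3 lower in EtOH+MBV against EtOH, 2 higher in PF+MBV against PF and 2 lower in the interaction (1). Over all genes DESeq2 called 526, 293 and 572 there, against 187, 97 and 269 in the main analysis. Limma voom called 0 lower in EtOH+MBV against EtOH, as did the fit with a replicate block, which called Psmb8 and Psmb9 lower in EtOH against PF (6 lower in all) and lost Psmd13 there and Psmd2 in EtOH+MBV against PF+MBV. Over all genes, voom called 117 and the block fit 97 lower in EtOH+MBV against EtOH. The block fit called 2423 of all genes lower in EtOH against PF. Same-numbered libraries did not deviate together (correlations of -0.124 to 0.17, 3 of 24 over 0.1, and 10 of 48 closest to their own number). With each library left out in turn, counts ran from 2 to 7 higher (highest without EtOH 1) and 4 to 6 lower in EtOH against PF, 0 to 3 lower in EtOH+MBV against EtOH (3 without EtOH 4), 0 to 1 higher in PF+MBV against PF (1 without PF 2), 4 to 14 lower in EtOH+MBV against PF+MBV (14 without EtOH+MBV 1), and 0 to 1 higher and 0 to 1 lower in the interaction. Without EtOH 4, 649 of all 13087 genes were lower in EtOH+MBV against EtOH. Without PF 2, 314 of all 13066 genes were higher in PF+MBV against PF. Without EtOH+MBV 1, 2557 of all 13067 genes were lower in EtOH+MBV against PF+MBV. The log2 fold change of Psmb9 in PF+MBV against PF ran from -0.0592 to 0.224, and that of Psmb10 in EtOH+MBV against PF+MBV from -0.0332 to 0.0688. The immunoproteasome share without division by length was 14.3% in EtOH+MBV, 18.9% in EtOH, 16.3% in PF+MBV and 18.8% in PF livers. The causes of these shifts were not tested.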
